A study of Petromyzon marinus with 12 samples.

Results

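The comparison described here sets whole sea lamprey embryos (Petromyzon marinus) in which the histone methyltransferase gene KMT5A was targeted with Cas9 against wildtype embryos, both at day 3 of development. It rests on 4 of the 12 RNA sequencing libraries of the study, 2 wildtype and 2 KMT5A knockout libraries, each from a pool of about 100 embryos kept at 18 °C. The knockout embryos had received Cas9 protein, guide RNAs and fluorescein dextran by injection and were screened for the dye at 24 hours after fertilization. Whether wildtype embryos were injected is not given in the labels. The embryos that gave the libraries are the injected ones themselves, so each pool can mix edited and unedited cells, and the labels give no share of edited alleles. Day 3 libraries of a KMT1 knockout, made in the same way, and day 2 libraries of the KMT5A knockout and of wildtype were used only where a difference from them was tested or shown.

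Of 22407 genes in the deposited table, 15615 passed a filter on low counts and were tested, and 11658 of those were above 0 in all 4 libraries. The description below is restricted to these, because an exact 0 in this table can be a failed estimate. KMT5A lies on chromosome 21, where 408 genes are annotated, 251 were tested and 177 were above 0 in all 4 libraries. The genes of chromosome 21 are described apart from the rest. The other 74 tested genes of that chromosome were listed at 0 in at least 1 library.

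KMT5A, also called SET8 or PR-Set7, is the enzyme that puts a single methyl group on lysine 20 of histone H4. In flies and mammals this mark rises in G2 and mitosis and helps to compact chromosomes. The protein itself is destroyed in S phase by a ubiquitin ligase that acts on replication forks. In mammalian cells, loss of the enzyme is known to be followed by DNA damage and a stalled cell cycle. The lamprey is a jawless vertebrate that discards germline DNA from its somatic cells as the embryo develops, and the study asked what histone methyltransferases do in embryos at that stage.

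Depth was high and similar, with 61886305 to 81131801 counts in the 4 libraries. In replicate 1 of the KMT5A knockout, the gene models PM00065 and PM00001, rich in ribosomal RNA, took 15.34% of all counts. They took 6.994% in 1 KMT1 knockout library of day 3 and 0.411 to 0.5989% in the other libraries. Levels were therefore scaled with trimmed means (TMM), whose factor was 0.712 in that library and 0.908 to 0.915 in the other 3. The median absolute log2 ratio between replicates was 0.183 in the KMT5A knockout and 0.105 in wildtype. Levels are given below as CPM, the count of a gene relative to the TMM-scaled library total, replicate 1 first. In RNA from pools of whole embryos, fewer cells of a type and less RNA per cell cannot be told apart.

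The targeted gene was lower in both knockout libraries. KMT5A, on the minus strand of chromosome 21 between positions 11963808 and 11985404 of the deposited annotation, stood at 197 and 208 CPM in the wildtype libraries and at 74.5 and 84.6 CPM in those of the knockout. The groups did not overlap, which held for 51.4% of the 11658 genes, and the decrease was -1.35 on the log2 scale (SE 0.0678, edgeR adjusted p = 6.25e-05). KMT1 knockout embryos of the same day had 198 and 204 CPM of KMT5A, and the direct difference between the knockouts was -1.34 (edgeR adjusted p = 1.3e-04). At day 2 KMT5A had 373 and 389 CPM in wildtype and 382 and 367 CPM in the knockout, and these ranges overlapped. With only the 4 compared libraries in the fit, the day 3 adjusted p was 0.0553.

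In the whole comparison 828 of the 15615 genes tested (5.3%) were called, and 734 of the 11658 above 0 in all 4 libraries (6.3%). Genes of the chromosome that carries KMT5A were lower as a body. On chromosome 21, 73 of the 177 genes were called lower and 4 higher in the day 3 KMT5A knockout, where 2.11% of all 11658 genes were called lower and 4.19% higher. The median log2 fold change on chromosome 21 was -0.52 (quartiles -0.87 and -0.17), a level 0.698 of wildtype, and 140 of the 177 genes had a negative value. On all other chromosomes and scaffolds the median of 11481 genes was -0.01 (quartiles -0.19 and 0.19), and 173 genes (1.51%) were called lower. Of the 76 chromosomes with at least 20 genes, the other 75 had medians of -0.15 to 0.25, and at most 4.76% of their genes were called lower. The number called lower on chromosome 21 was 3 when only the 4 compared libraries were fitted, 34 with the 6 day 3 libraries, 59 without knockout replicate 1 and 92 by DESeq2. The median stayed between -0.49 and -0.68 in all of these and in every other setting tried.

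**Figure D1:**
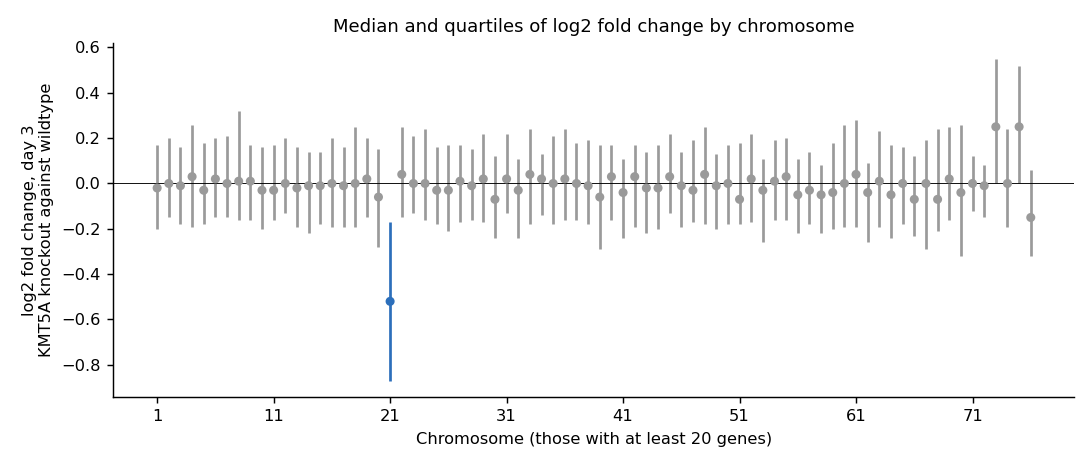
Log2 fold change between the day 3 KMT5A knockout and wildtype (vertical axis) for genes above 0 in all 4 libraries, by chromosome number (horizontal axis) for the 76 chromosomes with at least 20 genes. Points are medians and lines join the quartiles; chromosome 21, in blue, has a median of -0.52, and the other medians lie between -0.15 and 0.25.

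Most of the lower levels lay at lower coordinates than KMT5A, where most of the chromosome's genes lie. Among the 135 genes more than 1 Mb below KMT5A, that is, at lower coordinates, the median log2 fold change was -0.72, a level 0.607 of wildtype, and 70 genes (51.9%) were called lower. Among the 33 genes at higher coordinates than KMT5A the median was -0.17, and 1 was called lower and 1 higher. Only 3 of the 33 lie more than 2 Mb from KMT5A, and the 30 within 2 Mb had a median of -0.16. Beyond 2 Mb, side and distance from KMT5A therefore cannot be told apart. Among the 8 genes within 1 Mb below KMT5A the median was 0.32, and 1 was called lower. For 7 of these genes the KMT1 knockout, against the same wildtype libraries, had a median of 0.27. Between the knockouts their median was -0.0. In steps of 2 Mb away from KMT5A towards lower coordinates, the medians were -0.27, -0.75, -0.73, -0.72, -0.71 and -0.79, over 26, 13, 15, 29, 33 and 27 genes. The 5 steps that lay more than 2 Mb away thus differed by 0.08 or less from one another.

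At the far end, the 6 genes more than 11 Mb from KMT5A had a median of 0.18, and 1 was called higher and 1 lower. The higher one was PTN (PM11617), which codes for the growth factor pleiotrophin, at 7.71 and 8.21 CPM in wildtype and 10.9 and 11.3 CPM in the knockout. The lower one was SLC5A8 (PM11608), a monocarboxylate transporter, at 480 and 474 CPM in wildtype and 246 and 269 CPM in the knockout (log2 fold change -0.89, edgeR adjusted p = 0.0111). MTPN (log2 fold change 0.12, edgeR adjusted p = 0.489) and NUP160, a nuclear pore subunit (0.03, adjusted p = 1), also lie in this step. In the KMT1 knockout, against the same wildtype libraries, the median of this step was also 0.18, and between the knockouts it was -0.08. The step holds few genes, and its neighbour at 10 to 11 Mb, with 21 genes, had a median of -0.87 and 18 genes called lower. Of the 429 windows of 2 Mb with at least 10 genes across the genome, the 422 on other chromosomes had medians of -0.29 to 0.39. The 7 on chromosome 21 had medians of -0.79 to -0.16, and 5 of them were below every window elsewhere.

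**Figure D2:**
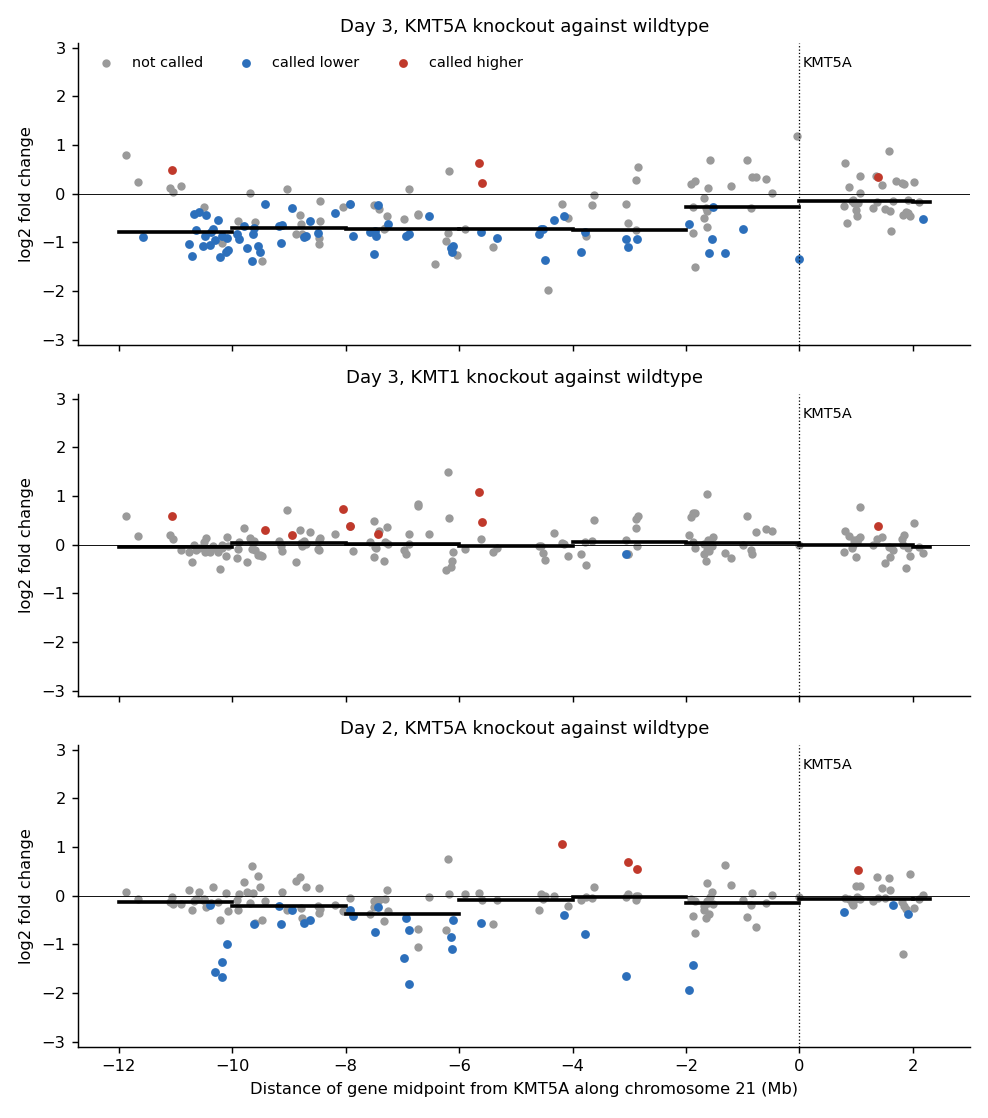
Log2 fold change (vertical axis) of each chromosome 21 gene against its distance from KMT5A in Mb (horizontal axis, negative towards lower coordinates), for the day 3 KMT5A knockout, the day 3 KMT1 knockout and the day 2 KMT5A knockout, each against wildtype of the same day. Colours mark genes called lower or higher and black bars the medians of 2 Mb steps; in the top panel the bars beyond 2 Mb below KMT5A lie between -0.79 and -0.71, and in the middle panel all bars lie between -0.05 and 0.05.

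Both knockout libraries showed the shift. The ratio was taken over the 130 genes more than 1 Mb below KMT5A and above 0 in all 12 libraries. Relative to the wildtype mean, its median log2 value was -0.71 in replicate 1 and -0.69 in replicate 2. In the other day 3 libraries it was -0.01 to 0.02, with each wildtype library set against the other one. Replicate 2, in which PM00065 and PM00001 took 0.5989% of counts, thus had nearly the same median as replicate 1, in which they took 15.34%. The whole of chromosome 21 took 0.87 and 1.116% of the counts of genes above 0 in all 12 libraries in the KMT5A knockout. It took 1.721 and 1.716% in wildtype and 1.69 and 1.555% in the KMT1 knockout, so that both KMT5A knockout libraries were below the other 4. The exact permutation p of that split was 0.133 two-sided and 0.0667 one-sided. With 15 splits of 2 against 4 libraries, these are the smallest values that this form of the test can give. With PM00065 and PM00001 left out, the shares were 1.03 and 1.123% against 1.673 to 1.729%.

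**Figure D3:**
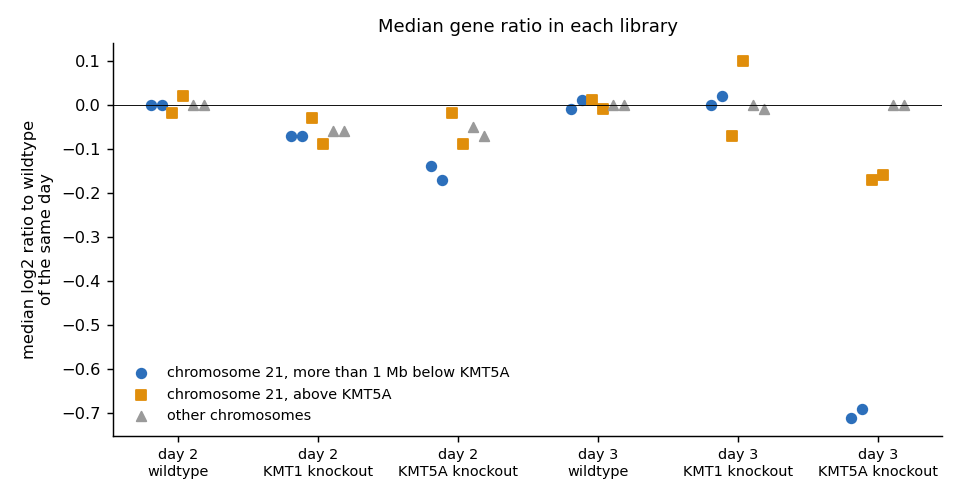
Median log2 ratio of genes to the wildtype mean of the same day (vertical axis), for each of the 12 libraries by group (horizontal axis), for chromosome 21 genes more than 1 Mb below KMT5A, chromosome 21 genes above it, and all other chromosomes. Genes are those above 0 in all 12 libraries, and each wildtype library is set against the other one of its day. The 2 day 3 KMT5A knockout libraries have medians of -0.71 and -0.69 below KMT5A, and each other library lies between -0.17 and 0.02 there.

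The KMT1 knockout of the same day, which shares the wildtype libraries, had a median of 0.00 for chromosome 21, with 9 of 175 genes called higher (5.14%) and 1 lower (0.571%), where 5.84% and 1.91% of 11224 genes on other chromosomes were. In the direct test between the knockouts, 63 of 175 chromosome 21 genes (36%) were lower in the KMT5A knockout and 0 were higher, with a median of -0.59, where 0.86% of all 11399 genes compared were called lower. Outside chromosome 21, 35 of 11224 genes (0.312%) were called lower in that test. At day 2 the KMT5A knockout had a chromosome 21 median of -0.11, against -0.06 elsewhere, and 31 of 166 genes (18.7%) were called lower, where 9% of all 10935 genes compared were. The test of the difference between days called 40 of 166 chromosome 21 genes (24.1%) more negative at day 3, where 3.91% of all 10935 genes compared were and 12.8% were called in either direction.

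Chromosome 21 genes were also split by their change with development, taken as the difference of day 3 from day 2 in the KMT1 knockout, whose libraries belong to neither group compared. Among genes more than 1 Mb below KMT5A, the 48 that were higher at day 3 had a median log2 fold change of -0.86 in the day 3 KMT5A knockout, and 35 (72.9%) were called lower. The 57 that were lower at day 3 had a median of -0.43, and 27 (47.4%) were called lower. The 25 not called over time had a median of -0.68, and 7 (28%) were called lower. On other chromosomes the medians of the same classes were -0.05, 0.09 and -0.03, and 1.7%, 1.95% and 0.841% were called lower. The difference between classes on chromosome 21 was not tested.

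Of the chromosome 21 members of the lists on the cell cycle and chromosomes, 2 of 2 for cyclins and G2/M, 1 of 4 for replication, 1 of 2 for cohesin, condensin and kinetochore, 1 of 2 for the germline and 1 of 1 for histones and chaperones were called lower, and none higher. Over all 177 genes of the chromosome, 41.2% were called lower and 2.26% higher. FOXM1, a transcription factor that drives genes of G2 and mitosis, had 41.8 and 42.2 CPM in wildtype and 16.7 and 15.8 CPM in the knockout. It fell by 1.37 on the log2 scale (SE 0.0955, edgeR adjusted p = 2.93e-04). PRC1 (PM11635), which bundles microtubules of the spindle midzone, had 142 and 136 CPM in wildtype and 65.4 and 68.9 CPM in the knockout (log2 fold change -1.05, SE 0.0376, edgeR adjusted p = 2.34e-05). SYCP3, a protein of the synaptonemal complex, fell from 50.8 and 46.6 CPM to 21.7 and 24.2 CPM, and STAG1, a cohesin subunit, from 15.3 and 13.5 CPM to 9.07 and 9.17 CPM. NAP1L4 (PM11798), a histone chaperone, had 519 and 515 CPM in wildtype and 298 and 274 CPM in the knockout. Each of these 5 genes was also lower in the direct test against the KMT1 knockout, by 0.67 to 1.05 on the log2 scale.

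Members of other lists on chromosome 21 were called lower in 2 of 2 for cytosolic ribosomal proteins, 1 of 3 for splicing factors and 1 of 2 for the respiratory chain. Over the chromosome, 41.2% of the 177 genes were called lower. The 2 members in the list of demethylases, Polycomb, HP1 and DNA methylation were not called. Nor was the 1 member in each list of p53 targets, ectoderm factors, Wnt, Nodal, junctions, glycolysis and nuclear pore. RPL8 and RPS16, proteins of the cytosolic ribosome, had log2 fold changes of -0.94 and -0.95. RPL8 stood at 1670 and 1650 CPM in wildtype and at 886 and 844 CPM in the knockout. TAF5 of the general factor TFIID, CNOT2 of the CCR4-NOT deadenylase complex and MAK16, a ribosome assembly factor, had log2 fold changes of -0.79, -0.80 and -0.78. MRPL23 of the mitochondrial ribosome and NDUFA1 of respiratory complex I had -0.78 and -0.82. CELF2 (PM11839), an RNA-binding regulator of splicing, fell from 681 CPM in both wildtype libraries to 366 and 360 CPM. These genes belong to unrelated functions, and 79.1% of all 177 genes on the chromosome had a negative fold change.

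Apart from KMT5A itself, at -1.35, the 6 chromosome 21 genes with the largest decreases by the naming rule ranged from -1.22 to -1.38 on the log2 scale. They were ANOS1 (PM11667), an extracellular matrix protein, FOXM1, EFNB3 (PM11644), an ephrin, PHF21A (PM11625), a reader of unmodified histone H3 tails in the LSD1 complex, TMEM9, a membrane protein, and BSCL2, the lipid droplet protein seipin. The 3 rises on the chromosome by the same rule were PNRC1 (0.63), PTN (0.48) and SEC23IP (0.35), and their values in the KMT1 knockout, against the same wildtype libraries, were 1.09, 0.59 and 0.39.

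Right beside KMT5A no level was called different by edgeR. DESeq2 called STARD7 lower (DESeq2 adjusted p = 0.017) and SEPSECS higher (DESeq2 adjusted p = 0.0129). On its higher-coordinate side STARD7, a lipid transfer protein, had 115 and 118 CPM in wildtype and 97.6 and 98.5 CPM in the knockout (log2 fold change -0.25, edgeR adjusted p = 0.0656). KDM3B (PM11999), a histone demethylase, had 240 and 222 CPM against 211 and 203 CPM (-0.16, adjusted p = 0.0943). SEPSECS, which acts in selenocysteine synthesis, had a log2 fold change of 0.63 (adjusted p = 0.123). The model named for a RHOBTB2 domain had 80.4 and 84 CPM in wildtype and 46.2 and 62.1 CPM in the knockout. Its log2 fold change was -0.60 with a wide SE of 1.14 (edgeR adjusted p = 0.958). That model was listed at 0 in the day 2 wildtype and KMT5A knockout libraries. On the lower-coordinate side CHST14, a sulfotransferase, had 1.18 and 1.04 CPM in wildtype and 1.97 and 3.04 CPM in the knockout (adjusted p = 0.62). The model named for a PLCXD3 domain had a log2 fold change of 0.02 (adjusted p = 1). TAAR2, TAAR9, HTR4 (PM11980) and MCM7 (PM11988), the other near neighbours, were listed at 0. Further out, RBM19, 1 Mb below, was called lower (-0.72, edgeR adjusted p = 0.00123) and KANSL3, 2.17 Mb above, was too (-0.51, adjusted p = 0.00356).

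Outside chromosome 21 more genes rose than fell. Of 11481 genes there, 484 (4.22%) were called higher and 173 (1.51%) lower, and over all called genes above 0 in the 4 libraries the median absolute log2 fold change was 0.54. With library totals in place of TMM the split was 72 higher and 72 lower, and the median of all genes moved to -0.17. Without knockout replicate 1 it was 236 and 103, without knockout replicate 2 it was 690 and 652, and without wildtype replicate 1 or 2 it was 209 and 32 or 178 and 94. With the 6 day 3 libraries alone it was 48 and 4, with the 4 compared libraries alone 6 and 2, and by DESeq2 1287 and 567. By edgeR, 3124 of all 15615 genes tested had an unadjusted p under 0.05, in either direction. Counts of list members by DESeq2 or at an unadjusted p, given below, are to be read against these. Of 179 called genes that are named or counted in the lists, 81 were also called without knockout replicate 1, 33 with the 6 day 3 libraries alone, 8 with the 4 compared libraries and 179 by DESeq2. Among the genes named in the text, those not called without knockout replicate 1 were HSPBP1, SELENON, EPHX1, FOXD3, MFSD2A, TNNC1, RBX1, SUPT16H, TIMELESS, USP1, MDM2, CASP8, BTG1, EGR3, FOS, GATA2, GRHL2, SFRP2, Lefty1, PTCH1, TNRC6A, TET2 and the models named for a SPRED2 domain (PM15667) and a TGF-beta domain (PM18925). They also included both genes annotated as KRT8 (PM05631 and PM15869). On chromosome 21 they were EFNB3, BSCL2, PNRC1, STAG1 and SLC5A8 (PM11608). Their adjusted p values in that fit were 0.0531 to 0.235.

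A single gene stood far from the rest among the decreases. The gene with the symbol C5H14orf4 (PM21070, chromosome 53) was measured at 80 and 75.6 CPM in wildtype embryos and at only 2.95 and 2.84 CPM in those with the knockout. It fell by 4.75 on the log2 scale (SE 0.0618, edgeR adjusted p = 3.45e-08), and in the 4-library fit the adjusted p was 0.0154. It had 69.5 and 74.9 CPM in the KMT1 knockout, and the direct difference was -4.64 (adjusted p = 3.99e-08). At day 2 its log2 fold change was 0.19 (adjusted p = 0.0583).

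The other 11 of the 12 largest decreases by the naming rule had log2 fold changes of -0.95 to -2.24. GLIS1, a zinc finger transcription factor, had 36.8 and 39.3 CPM in wildtype and 6.78 and 9.41 CPM in the knockout, and ZFP36L1 (PM14443), which directs decay of mRNAs with AU-rich elements, had 30.9 and 35 against 6.96 and 6.94 CPM. Their log2 fold changes were -2.23 and -2.24. ZFP36L1 was listed at 0 in the day 2 wildtype and KMT5A knockout libraries. FOXD3 (PM16104), a forkhead factor of neural crest and pluripotent cells, PDGFA (PM05305), a growth factor, and the model named for a SPRED2 domain (PM15667) had -1.02, -0.95 and -1.16. In the KMT1 knockout, which shares the wildtype libraries, the values of GLIS1, ZFP36L1, FOXD3, PDGFA and the SPRED2 model were -2.31, -1.85, -0.88, -1.08 and -1.08. None of the 5 was called in the direct test between the knockouts, at adjusted p values of 0.401 to 1. TYW3, an enzyme of tRNA wybutosine synthesis, and DUSP8 (PM02764), a MAP kinase phosphatase, fell by 1.46 and 1.18, and both were also called lower than in the KMT1 knockout. HSPBP1, a co-chaperone of Hsp70, SELENON, a selenoprotein, EPHX1 (PM15181), an epoxide hydrolase, and tp53bp2a, a p53-binding protein, completed the 12, with -1.47, -1.38, -1.24 and -1.01.

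The 12 largest increases among the genes the naming rule admits (with a symbol, above 0 in all 4 libraries, well counted and with groups that did not overlap) were 1.92 to 2.66 on the log2 scale. PRXL2B, a peroxiredoxin-like enzyme, had 2.15 and 2.55 CPM in wildtype and 16.1 and 13.6 CPM in the knockout. MACROH2A1 (PM07718), a histone H2A variant with a macro domain, had 65 and 57.7 CPM in wildtype and 267 and 242 CPM in the knockout (log2 fold change 2.05, edgeR adjusted p = 4.92e-04). INSM1, a zinc finger factor of neuroendocrine progenitors, had 9.76 and 8.19 against 47.1 and 39.8 CPM, and MAP3K20 (PM11068), a stress-activated kinase, 5.98 and 6 against 29.1 and 24.9 CPM. The others were MFSD2A (PM09968), a lipid transporter, KLHL10, ARHGEF2, an activator of RhoA, TNNC1 (PM16331), a troponin C, Svil, an actin-binding protein, SLC6A8 (PM18341), the creatine transporter, and models named for a TGF-beta and a YqaJ domain. In the KMT1 knockout, measured against the same wildtype libraries, these 12 genes had log2 fold changes of 1.52 to 2.34. The direct test between the knockouts called none of the 12, at adjusted p values of 0.187 to 1. MFSD2A, ARHGEF2, TNNC1 and the TGF-beta model were listed at 0 in the day 2 wildtype and KMT5A knockout libraries. MAP3K20 was listed at 0 in those of day 2 wildtype.

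**Figure D4:**
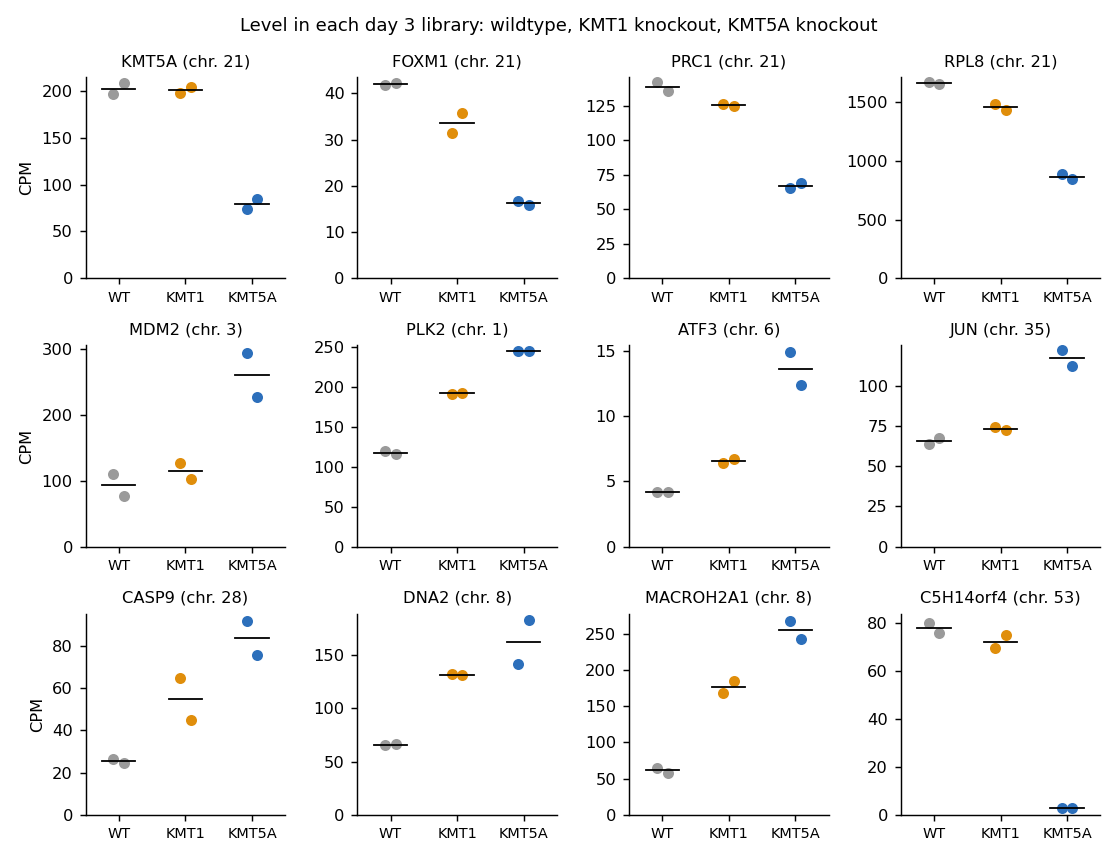
CPM on the TMM scale (vertical axes, starting at 0) of 12 genes in each day 3 library of wildtype, the KMT1 knockout and the KMT5A knockout (horizontal axes); points are libraries and bars the means of 2. The 4 genes of chromosome 21 in the top row and C5H14orf4 lie lower in the KMT5A knockout than in both other groups, and MACROH2A1, CASP9 and DNA2 lie above wildtype in both knockouts.

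Outside chromosome 21, the members of the list of p53 targets and apoptosis that edgeR called were all higher. The p53-binding protein tp53bp2a, called lower at -1.01, is not in this list. Of the 43 members above 0 and outside chromosome 21, 8 (18.6%) were called higher and 0 lower by edgeR, where 4.22% of all genes there were called higher. At an unadjusted p under 0.05 the split was 14 and 1, by DESeq2 12 and 1, and without knockout replicate 1 it was 4 and 0. The median log2 fold change of the list was 0.12, against -0.01 for all genes, and 0.02 without knockout replicate 1. With the 6 day 3 libraries alone 1 member was called, higher. MDM2 (PM04866), the ubiquitin ligase that is a target of p53 and its main inhibitor, had 110 and 76.6 CPM in wildtype and 294 and 226 CPM in the knockout. It rose by 1.48 on the log2 scale (SE 0.30, edgeR adjusted p = 0.0315), and without knockout replicate 1 the adjusted p was 0.136. CASP9, the initiator caspase of the mitochondrial pathway, had 26.6 and 24.3 CPM in wildtype and 91.9 and 75.8 CPM in the knockout (1.72, adjusted p = 0.00122). CASP8, the initiator caspase of death receptors, had 62.8 and 57.4 against 88 and 85.4 CPM (0.53, adjusted p = 0.0278, and 0.158 without knockout replicate 1). PLK2 (PM02181), a kinase induced by p53, had 119 and 116 CPM in wildtype, 244 and 245 with KMT5A knocked out and 191 and 192 with KMT1 knocked out. In the direct test PLK2 was higher than in the KMT1 knockout by 0.35 (edgeR adjusted p = 0.0243), while CASP9, MDM2 and CASP8 were not called (adjusted p = 0.189, 0.158 and 0.213). CASP9 had a log2 fold change of 1.11 in the KMT1 knockout against the same wildtype libraries. Other members called included BTG1 (PM14825), MCL1 (PM20884) and GADD45B (PM16069), at 0.48, 0.36 and 0.21, outside the naming rule and listed after their values were seen. By the direct test MCL1 was higher than in the KMT1 knockout (0.40, edgeR adjusted p = 0.00246), GADD45B was lower (-0.31, adjusted p = 0.00378) and BTG1 was not called (adjusted p = 0.144).

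Several immediate-early and stress genes were higher than in wildtype and, by the direct test, higher than in the KMT1 knockout. Of 60 members 6 (10%) were called higher and 1 (1.67%) lower, where 4.22% and 1.51% of all genes outside chromosome 21 were, and without knockout replicate 1 it was 2 and 2. ATF3 (PM06901), a stress-induced bZIP factor, had 4.22 CPM in both wildtype libraries, 14.9 and 12.4 CPM in the KMT5A knockout and 6.41 and 6.68 CPM in the KMT1 knockout. JUN (PM15983), a subunit of AP-1, had 63.6 and 67.3 CPM in wildtype, 122 and 112 with KMT5A knocked out and 74 and 72.2 with KMT1 knocked out. FOS (PM06903), its partner, had 5.7 and 5.32 CPM in wildtype, 11.5 and 9.55 with KMT5A knocked out and 3.16 and 3.67 with KMT1 knocked out. EGR3 (PM08083), a zinc finger factor of the early growth response family, had 23.9 and 34.9 CPM in wildtype, against 85.3 and 56.6 CPM after KMT5A knockout. In none of these 4 genes did the KMT5A knockout libraries overlap with wildtype, as in 51.4% of all 11658 genes. The log2 fold changes against wildtype were 1.69, 0.84, 0.93 and 1.27, and the direct differences from the KMT1 knockout were 1.06, 0.67, 1.62 and 1.35 (edgeR adjusted p = 0.00214, 0.0315, 0.00581 and 0.0314). In that direct test 5 members of this list were higher and 1 lower, where 0.36% of all 11399 genes compared were called higher. Without knockout replicate 1 the day 3 adjusted p was 4.46e-04 for ATF3 and 0.0379 for JUN, but 0.142 for FOS and 0.0531 for EGR3.

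Cell cycle and replication lists held calls in both directions. Of 58 replication genes outside chromosome 21, 5 (8.62%) were called higher and 1 (1.72%) lower, where 4.22% and 1.51% of all genes there were, and without knockout replicate 1 it was 2 and 0. TIPIN and TIMELESS, partners that protect replication forks, had log2 fold changes of 0.68 and 0.57, and GMNN, the inhibitor of relicensing of origins, rose from 765 and 770 CPM to 1150 and 1050 CPM. Of 72 genes of cyclins, cyclin-dependent kinases and G2/M, 6 (8.33%) were called higher and 2 (2.78%) lower, and without knockout replicate 1 it was 2 and 1. The largest was cdkn1b, an inhibitor of cyclin-dependent kinases, at 27.7 and 27.9 CPM in wildtype and 103 and 90.2 CPM in the knockout (1.80, edgeR adjusted p = 8.94e-04). PLK2, counted among the p53 targets as well, was another of the higher ones. Among 71 genes of break repair and checkpoints 2 were called higher and 0 lower by edgeR, 7 and 3 at an unadjusted p under 0.05 and 6 and 2 by DESeq2. They were DNA2, a nuclease and helicase, from 65.2 and 66.1 to 142 and 183 CPM, and USP1 (PM05792), a deubiquitinase, from 131 and 127 to 170 and 150 CPM. In the KMT1 knockout, against the same wildtype libraries, TIPIN, TIMELESS, GMNN, cdkn1b, DNA2 and USP1 had 0.62, 0.66, 0.61, 1.48, 1.00 and 0.36. None of them was called in the direct test between the knockouts, at adjusted p values of 0.319 to 1.

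The other genes of H4K20 methylation and KMT5A turnover held 1 call. Of 27 outside chromosome 21, 1 (3.7%) was called higher, RBX1, a subunit of cullin ubiquitin ligases, at 0.32, where 4.22% of all genes there were called higher and 1.51% lower. None was called lower by edgeR. At an unadjusted p under 0.05, 5 were higher and 8 lower, and by DESeq2 4 were higher and 3 lower. KMT5B, an enzyme that adds further methyl groups at the same lysine, is annotated as a pair of genes, and they had log2 fold changes of -0.28 (PM07331, adjusted p = 0.155) and -0.15 (PM12770, adjusted p = 0.248). DTL, which recognises KMT5A for destruction, had 33.6 and 35.3 CPM in wildtype and 38.5 and 40.5 CPM in the knockout (0.19, adjusted p = 0.0981). Of 42 other histone methyltransferases and of 67 genes of chromatin remodeling and histone acetylation, none was called by edgeR. At an unadjusted p under 0.05 these 2 lists held 5 and 11 genes, where 3124 of all 15615 genes tested were under it. By DESeq2 they held 3 and 6 calls, where 1287 of all 11481 genes outside chromosome 21 were called higher and 567 lower. Of 33 histones and chaperones 3 (9.09%) were called higher and 1 (3.03%) lower, SUPT16H at -0.24. H1-10, a linker histone, was among the higher ones at 0.21.

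Calls among markers of the germ layers were read against the same shares over all genes. Of 18 mesoderm and endoderm factors 1 (5.56%) was called lower, GATA2 (PM09734) at -0.64, where 1.51% of all genes outside chromosome 21 were, and without knockout replicate 1 its adjusted p was 0.157. Their summed level was 2260 to 2350 CPM in wildtype and 2420 CPM in both knockout libraries, with TBXT, the mesodermal factor brachyury, at 33.3 to 44.3 CPM in all 4 libraries and both of its annotated copies, and SOX17, an endoderm factor, listed at 0. Of 55 ectoderm, neural and neural crest factors 4 (7.27%) were called lower and 2 (3.64%) higher, where 4.22% of all genes were higher. Without knockout replicate 1 the split was 1 lower and 0 higher by edgeR, and over all libraries the list had a median of -0.14. Its summed level was 4670 and 4680 CPM in wildtype and 4160 and 4410 CPM in the knockout. The lower ones included FOXD3, OTX2 (PM07086), a factor of the anterior neural plate, at -0.61, and GRHL2, a factor of surface ectoderm, at -0.50. Both higher ones were annotated as KRT8, at 1.02 (PM05631) and, outside the naming rule, at 0.33 (PM15869). In the KMT1 knockout, against the same wildtype libraries, GATA2, FOXD3, OTX2, GRHL2 and KRT8 (PM05631) had -0.65, -0.88, -0.56, -0.53 and 0.94. None of these was called in the direct test between the knockouts. OTX2 was also called lower at day 2, at -0.59 (edgeR adjusted p = 0.01). Of 33 germline genes outside chromosome 21, 2 (6.06%) were called higher and 0 lower by edgeR, 7 and 1 at an unadjusted p under 0.05, and 6 and 1 by DESeq2. Without knockout replicate 1, and with the 6 day 3 libraries alone, none of them was called by edgeR. They had a summed level of 1830 to 1900 CPM in wildtype and 1970 to 2170 CPM in the knockout. The HOX list had 8 genes above 0, at a summed level of 22 to 25.9 CPM in the 4 libraries, and none was called by edgeR, 1 at an unadjusted p under 0.05 and 1 by DESeq2.

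Signalling lists held calls in both directions, where 1.51% of all genes outside chromosome 21 were called lower and 4.22% higher. In the Wnt pathway 4 of 53 genes (7.55%) were called lower and 1 (1.89%) higher, and without knockout replicate 1 it was 2 and 1. Its called genes included SFRP2, a secreted Wnt antagonist, from 335 and 312 to 192 and 197 CPM, and WNT11, a ligand, from 200 and 183 to 256 and 301 CPM. In the Nodal, BMP and TGF-beta list 3 of 44 (6.82%) rose, Lefty1, a Nodal antagonist, by the most at 0.65, and 3 (6.82%) fell, and without knockout replicate 1 it was 1 and 1. The largest change called in the Nodal, BMP and TGF-beta list was a fall, that of ID2 (PM13727) at -0.79. In the FGF and ERK list 2 of 38 (5.26%) fell, both annotated as ETV1, a target of FGF signalling, at -0.46 (PM08465) and -0.44 (PM04102). SHH (PM05492), the Hedgehog ligand, had 9.33 and 8.3 CPM in wildtype and 21.2 and 40.6 CPM in the knockout (1.81, edgeR adjusted p = 0.0101), while PTCH1 (PM16017), its receptor, fell by 0.55. In the KMT1 knockout, against the same wildtype libraries, SFRP2, WNT11, Lefty1, SHH and PTCH1 had -0.66, 0.50, 0.65, 1.82 and -0.51. ID2 had -0.65 there, and the ETV1 genes had -0.53 (PM08465) and -0.48 (PM04102). None of these genes was called in the direct test between the knockouts, at adjusted p values of 0.873 or more.

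Most lists of general cell machinery held few calls, where 4.22% of all genes outside chromosome 21 were called higher and 1.51% lower. Of 80 cytosolic ribosomal protein genes outside chromosome 21 none was called by edgeR, 3 were at an unadjusted p under 0.05 and 2 by DESeq2, and the median was -0.03. In the fit without knockout replicate 1, 4 of them were called lower. Of 96 respiratory chain genes 2 (2.08%) were called higher, of 121 genes of ribosome biogenesis 3 (2.48%) lower, and of 119 splicing factors 2 (1.68%) higher and 4 (3.36%) lower. Calls were 1 of 73 for mitochondrial ribosomal proteins and 1 of 42 for the proteasome, and 4 of 96 for RNA polymerase II, its general factors and Mediator, each of them higher. Glycolysis and the citric acid cycle had 5 of 63 (7.94%) higher and 1 lower, and without knockout replicate 1 it was 1 and 0. Nuclear pore, lamina and import had 2 of 90 higher and 3 lower, and without that library 1 and 1, and zinc finger genes had 4 of 116 higher and 3 lower, and without it 2 and 2. Cohesin, condensin and kinetochore genes had 2 of 46 higher and 1 lower, and centriole and centrosome genes 1 of 55 in each direction. These were 0 and 1, and 0 and 0, without knockout replicate 1. Among 64 genes of maternal mRNA decay and translational control, 8 (12.5%) were called higher and 4 (6.25%) lower, and without knockout replicate 1 it was 1 and 3. TOB1, an adaptor of the deadenylase complex, rose from 140 and 138 to 257 and 247 CPM and was also higher than in the KMT1 knockout (0.48, edgeR adjusted p = 0.00104). TNRC6A (PM16713), a microRNA effector, fell from 56.5 and 58.2 to 27.7 and 36 CPM. Of 61 demethylases, Polycomb, HP1 and DNA methylation genes 3 (4.92%) were called lower and 1 (1.64%) higher, and without knockout replicate 1 it was 1 and 1. ASXL2 (PM18536), a Polycomb-related factor, fell by 0.46 and was also lower than in the KMT1 knockout (adjusted p = 0.00257), and TET2, an oxidase of methylated cytosine, fell by 0.45.

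**Figure D5:**
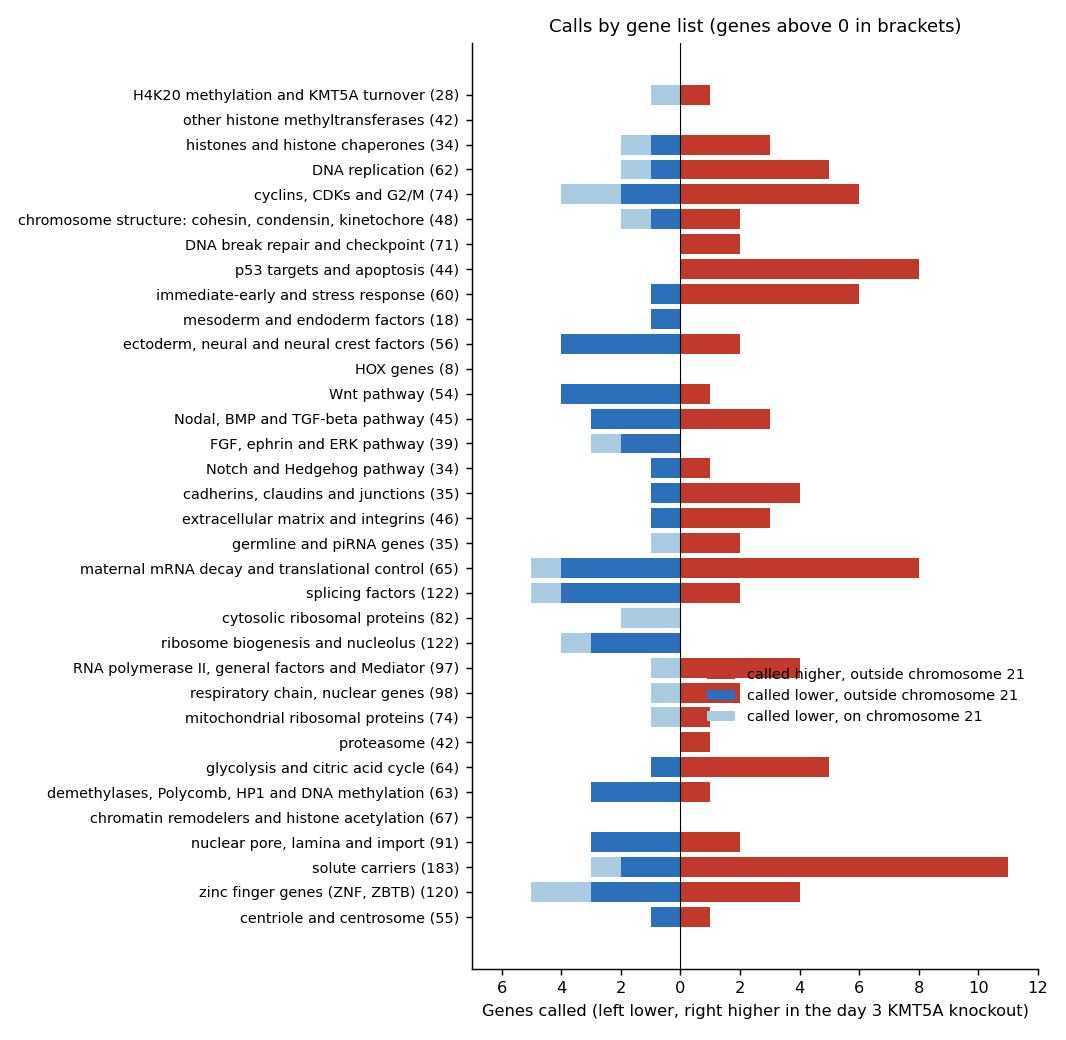
Number of genes called lower (left) or higher (right) in the day 3 KMT5A knockout against wildtype (horizontal axis) in each of 34 gene lists (vertical axis), with members on chromosome 21 in light blue. In brackets is the number of members above 0 in all 4 libraries; p53 targets and apoptosis show 8 higher and 0 lower, and cytosolic ribosomal proteins only the 2 lower genes of chromosome 21.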

How the data were processed

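RNA from 12 pools of whole embryos was sequenced, and 4 libraries form the comparison described here. HISAT2 2.2.1, StringTie 2.2.3 and DESeq2 1.42.1 are named in the submitters' processing notes; strand setting, multi-mapping and genome build are not given in the sources used here. The values are the deposited table of whole-number estimated counts per gene, a kind of expected count, because few genes hold values just above 0; rounding changed none. Gene positions (other columns) and names come from the deposited annotation, whose coordinates are its own; 14762 genes carry a symbol. Of the 177 chromosome 21 genes above 0 in all 4 libraries, 80 matched RefSeq by symbol, 71 of them also on its chromosome 21. RefSeq numbers the chromosome in the opposite direction, so that lower coordinates here are higher coordinates there. With that reversal, all 70 apart from KMT5A lay on the same side of KMT5A in both.

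Counts were fitted in R 4.3.3 with edgeR 4.0.16: TMM, the default filter on low counts, 1 model of 6 groups over 12 libraries (6 residual and 1.69 prior degrees of freedom), the quasi-likelihood F test and Benjamini-Hochberg adjustment over 15615 genes. An adjusted p under 0.05 made a call. CPM use TMM-scaled totals, and standard errors come from the F statistic. DESeq2 1.42.0, limma 3.58.1 and other settings served as alternatives, and summaries used Python 3.11.15, pandas 2.3.3, scipy 1.17.1 and matplotlib 3.10.9. The labels call replicates biological. The p-values of the main fit rest on a spread between pools estimated over all 6 groups, not on the 4 compared libraries alone. A group in which a gene was listed at 0 in both libraries adds no spread for that gene. This was so for the named genes given above as listed at 0 at day 2. It was also so for SLC5A8 (PM11608) in the day 2 KMT5A knockout. The median absolute log2 ratio between replicates was 0.0851 to 0.0994 in the day 2 groups. At day 3 it was 0.183 in the KMT5A knockout, 0.167 in the KMT1 knockout and 0.105 in wildtype. On data simulated once for the same comparison (15359 genes, 200 changed) edgeR recovered 31% of changes of 1 and 53% of changes of 2 on the log2 scale. Of its calls 5.62% were false, and of those by DESeq2 50.7% were. The counts were drawn from edgeR's own dispersion estimates, with a single mean per gene over all groups. These rates therefore need not hold for the real libraries and do not rank the tools.

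The naming rule took called genes with a symbol, above 0 in all 4 libraries, 50 or more counts on average in the group with more, and groups that did not overlap: the 12 largest rises and falls outside chromosome 21, 6 falls (KMT5A set apart) and 3 rises on it, the 5 nearest genes with a symbol on either side of KMT5A, and up to 4 called members of each of 34 lists. The members, lists and tests were chosen with earlier results of these data known. Lists can share members, and a gene is counted in each list that holds it. PLK2 is in the lists of p53 targets and of cyclins and G2/M, and BTG1 in those of p53 targets and of maternal mRNA decay. Shares of different lists are therefore not all separate observations. A gene ID in brackets in most cases marks a symbol that more than 1 gene of the deposited table carries, as 3 do for MDM2. Values are those of the ID given, and other genes of that symbol are not described unless named. RBM19, KANSL3, SLC5A8, MTPN, NUP160, KMT5B and DTL were added after their values were seen. The numbers of replicates did not pair libraries (r = 0.00 between their deviations over 10458 genes). No column of values was left unused. A gene called in 1 of the lists is not reported here by name.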

Additional observations from a re-analysis of the deposited data

Results flagged for a closer look

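The effect of the KMT5A knockout on these named genes, all above 0 in the 12 libraries, differed between day 3 and day 2 by edgeR's test of the difference at an adjusted p under 0.05. Values in brackets are the log2 effect at day 3 minus that at day 2, and the day 2 libraries are not shared with day 3. On chromosome 21 the effect was more negative at day 3 for ANOS1 (-1.99), FOXM1 (-1.37), KMT5A (-1.33), SYCP3 (-1.0), TMEM9 (-0.99), PHF21A (-0.97), STAG1 (-0.95), PRC1 (-0.87), CELF2 (-0.82), TAF5 (-0.65), CNOT2 (-0.59) and NAP1L4 (-0.39). It was more positive for SEC23IP (0.39), PTN (0.51), RPS16 (0.61) and RPL8 (0.70); RPL8 and RPS16 were below wildtype at both days. Outside chromosome 21 it was more negative for C5H14orf4 (-4.94), GLIS1 (-2.18), TYW3 (-1.65), tp53bp2a (-1.49), PDGFA (-1.28), the SPRED2 model (-1.16), CENPK (-0.89), ASXL2 (-0.87), TET2 (-0.86), PTCH1 (-0.77), GRHL2 (-0.65) and ETV1 (PM04102) (-0.39). It was more positive for H1-10 (0.32), USP1 (0.39), GMNN (0.63), TOB1 (0.64), WNT11 (0.67), TIPIN (0.68), PLK2 (1.03), DNA2 (1.25), CASP9 (1.29), ATF3 (1.35), SLC6A8 (1.39), Svil (1.57), the YqaJ model (1.78), MACROH2A1 (1.83), KLHL10 (2.06), PRXL2B (2.19) and INSM1 (2.33). Of the 10935 genes above 0 in all 12 libraries, 12.8% were called in this test. Among the named genes above 0 in all 12 libraries, the largest value belonged to C5H14orf4, at 144 and 150 CPM in the day 2 KMT5A knockout and 2.95 and 2.84 CPM at day 3.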

How the results depend on the processing

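The number of calls changed with the scaling, the test and the libraries fitted. Genes called between the day 3 KMT5A knockout and wildtype numbered 828, 734 of them above 0 in all 4. Called in all, and above 0, were 291 and 201 with library totals, 2468 and 1955 by DESeq2, 506 and 467 by limma voom with a weight per group, 110 and 86 with the 6 day 3 libraries, 14 and 11 with the 4 compared libraries, and 99 and 18 with a log2 fold minimum of 1. Leaving out 1 library gave 491 to 1789 and 297 to 1420; the arm left with 1 library was assumed to vary like the other groups. Leaving out both libraries rich in ribosomal RNA, a setting chosen after seeing the data, gave 1335 in all. For KMT5A the log2 fold change was -1.36 with the 4 compared libraries, past no threshold, and passed under every other setting run. The chromosome 21 median of -0.52 at day 3 was -0.49 with RLE, -0.68 with library totals, -0.54 with at least 50 counts, -0.50 by DESeq2, -0.55 by voom, -0.53 with the 4 libraries and -0.53 without both ribosomal libraries, and leaving out 1 library gave -0.57 to -0.53. At day 2 the median was -0.11, taken over genes above 0 in all 12 libraries. With TMM without PM00065 and PM00001 it was -0.07, and with library totals -0.04. Where the fit itself was limited to genes above 0 in all 12 libraries, it was -0.08. Without both ribosomal libraries, or without any 1 library of the 4, it was -0.07. The direct comparison with the KMT1 knockout called 229 genes, 1118 by DESeq2, 63 by voom, 14 with day 3 libraries, 85 with the fold minimum, 599 with a term for the ribosomal share and 1051 without both ribosomal libraries, and leaving out 1 library gave 304 to 787. The difference between days called 1507 genes, 264 with library totals, 3151 by DESeq2 and 99 with the fold minimum, and leaving out 1 library gave 859 to 2245. The replicate block left 713 of the 828 calls in number; the libraries share only a number. The model named for a PLCXD3 domain changed sign, to -0.13 with library totals and between -0.06 and 0.09 with 1 library left out. The causes of these shifts were not tested.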

Other observations

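Cytosolic ribosomal protein genes stood differently at the 2 days in the KMT5A knockout. At day 2, 74 of 78 such genes above 0 in all 12 libraries and outside chromosome 21 were called lower than in wildtype, where 9% of all 10935 genes compared were, with a median log2 fold change of -0.68. At day 3 the median of the same genes was -0.03, and the test of the difference between days called 67 of the 78, where 12.8% of all genes were called. Ribosome biogenesis genes followed the same order, with 80 of 120 called lower at day 2 (median -0.33), a median of -0.01 at day 3 and 57 called between days. RPL8 and RPS16, on chromosome 21, had log2 fold changes of -1.64 and -1.56 at day 2 and of -0.94 and -0.95 at day 3.

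Of 182 solute carriers, 11 (6.04%) were called higher and 2 (1.1%) lower at day 3, where 4.22% and 1.51% of all genes outside chromosome 21 were. Without knockout replicate 1 it was 2 and 3. SLC6A8 (PM18341) had 4.94 and 4.98 CPM in wildtype and 17.7 and 19.7 CPM in the knockout. Genes of cell junctions rose in 4 of 34 (11.8%) and fell in 1, and without knockout replicate 1 in 1 each way. Those of extracellular matrix and integrins rose in 3 of 46 (6.52%) and fell in 1, and without knockout replicate 1 it was 2 and 0. CENPK, a kinetochore protein outside chromosome 21, had 33.4 and 31.6 CPM in wildtype and 24.1 and 20.9 CPM in the KMT5A knockout, and was also lower than in the KMT1 knockout (log2 difference -0.55, edgeR adjusted p = 0.0144).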
